A study of Lupinus albus with 12 samples.

Results

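The 2 genes described here, Lalb_Chr07g0178771 (named Early nodulin-93) and Lalb_Chr08g0231331 (named Putative hypoxia induced protein), were taken by identifier from the 23427 genes with a value in white lupin (*Lupinus albus*) roots exposed to sucrose. They were listed after their values were known, so their levels and differences are given as a description, without a test. Wildtype plants of the cultivar Amiga were grown hydroponically in a full nutrient solution, and root sections that included the tip were taken either without sucrose (control, 0 min) or after 10, 15 or 20 min with 10 mM sucrose. Each of the 4 time points had 3 libraries, and cDNA made from the RNA of these sections was sequenced on Oxford Nanopore flow cells. The 4 libraries of a biological replication shared 1 flow cell, so that the replicate number is also the flow cell number. Differences between flow cells and between biological replications therefore cannot be told apart. The paper describes 1 plant per replicate and the sample labels describe 3, and all plants were of 1 cultivar. The tissue is a mixture of root cell types, in which more cells expressing a gene and more RNA per cell cannot be told apart. The question was which transcripts respond within minutes of sucrose reaching the root.

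ENOD93 was first described in soybean as a transcript that appears early in the development of nitrogen-fixing root nodules, and related genes are found in plants that form no nodules. Hypoxia induced proteins carry the HIG1 domain, and in yeast and mammals HIG1 proteins associate with cytochrome *c* oxidase, the last enzyme of the mitochondrial respiratory chain. Mammalian HIG1 transcripts were named for their rise at low oxygen. In plant roots, low oxygen is known to raise transcripts of fermentation enzymes and non-symbiotic hemoglobins.

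In the CNRS_Lalb_1.0 assembly, Early nodulin-93 lies on chromosome 7 from 960733 to 961762, an annotated span of 1030 bases. The hypoxia induced protein gene lies on chromosome 8 from 661011 to 662018, a span of 1008 bases. Neither gene overlaps another annotated gene. The gene before Early nodulin-93, Lalb_Chr07g0178761 (named for a DnaJ heat shock protein domain, found in chaperone partners), ends 3493 bases away and had values of 5 to 11 in the 12 libraries. The gene after it, Lalb_Chr07g0178781, starts 2720 bases away and was not analysed here. On chromosome 8, Lalb_Chr08g0231321 (Putative beta-phosphoglucomutase, an enzyme of sugar phosphates) ends 1603 bases before the member and had values of 0 to 2. Lalb_Chr08g0231341 (a BTB-POZ family protein) starts 6060 bases after it and had values of 2 to 14. The measured neighbours therefore stayed at low values in every library.

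All values are whole, the totals of the libraries ranged from 184071 to 407780, and how many reads stand behind a value is not known. The libraries of flow cell 3 stood apart from the rest. Their totals lay between 339599 and 407780, against 184071 to 356992 in flow cells 1 and 2. A total of 19138 genes reached a value of 1 in 3 or more libraries. Of these, 1504 (7.86%) had all 4 libraries of flow cell 3 above the other 8, and 371 (1.94%) had all 4 below. Both members were among the 1504, and for this reason every sucrose library is set against the control library of its own flow cell. The values are given in the order of flow cells 1, 2 and 3.

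Early nodulin-93 was higher in each sucrose library than in the control library of the same flow cell. Its values were 4, 2 and 143 in control roots. After 10 min the values were 42, 118 and 766. After 15 min they were 77, 64 and 952. After 20 min they were 43, 84 and 1391. The increase was thus present at the earliest time point in all 3 flow cells, although the control library of flow cell 3, at 143, was above every sucrose library of flow cells 1 and 2. Pooled over flow cells, the control and sucrose libraries therefore overlap. As a share of a library's total, the gene took between 0.00109% and 0.410%.

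Within flow cells, Early nodulin-93 values were 10.5-fold, 59.0-fold and 5.36-fold those of the control after 10 min. The corresponding folds after 15 min were 19.2, 32.0 and 6.66. After 20 min they were 10.8, 42.0 and 9.73. Flow cell 2 had the highest of these folds at every time point and flow cell 3 the lowest. The values were not scaled for library totals, and the control library of flow cell 2 had the lowest total of all. With median-of-ratios scaling, the folds were 7.78, 37.4 and 6.11 after 10 min, 23.3, 20.8 and 7.11 after 15 min, and 8.76, 23.0 and 11.3 after 20 min. Every fold remained above 5, while the order of the flow cells changed at 15 and 20 min. The control values of 4 and 2 in flow cells 1 and 2 are small whole numbers, so the folds there rest on few units. On the log2(value + 1) scale, the mean difference from control was 3.61 ± 1.51 after 10 min, 3.71 ± 0.88 after 15 min and 3.74 ± 0.94 after 20 min (SD, n = 3 flow cells). The standard error from limma, a linear model fitted to all genes, was 1.72 for each of these differences without the flow cell in the model and 0.52 with the flow cell as a term. Without flow cell 3, the mean differences were 4.21, 4.20 and 3.98.

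The hypoxia induced protein gene was likewise higher in every sucrose library than in its own control library. Control roots gave values of 7, 2 and 82. After 10 min the values were 23, 47 and 695. After 15 min they were 16, 31 and 643. After 20 min they were 44, 41 and 624. As for Early nodulin-93, the control library of flow cell 3 was above the sucrose libraries of flow cells 1 and 2, which reached at most 47. Its share of a library's total was between 0.00109% and 0.184%.

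The hypoxia induced protein values were 3.29-fold, 23.5-fold and 8.48-fold those of the control after 10 min. After 15 min the folds were 2.29, 15.5 and 7.84, and after 20 min they were 6.29, 20.5 and 7.61. With median-of-ratios scaling they were 2.44, 14.9 and 9.67 after 10 min, 2.76, 10.1 and 8.38 after 15 min, and 5.12, 11.2 and 8.88 after 20 min. With and without scaling, flow cell 1 had the lowest fold each time and flow cell 2 the highest. The mean difference in log2(value + 1) was 2.88 ± 1.22 after 10 min, 2.49 ± 1.23 after 15 min and 3.07 ± 0.67 after 20 min (SD, n = 3 flow cells). The limma standard error was 1.72 without and 0.47 with the flow cell in the model. Without flow cell 3, the mean differences were 2.79, 2.25 and 3.15.

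**Figure D1:**
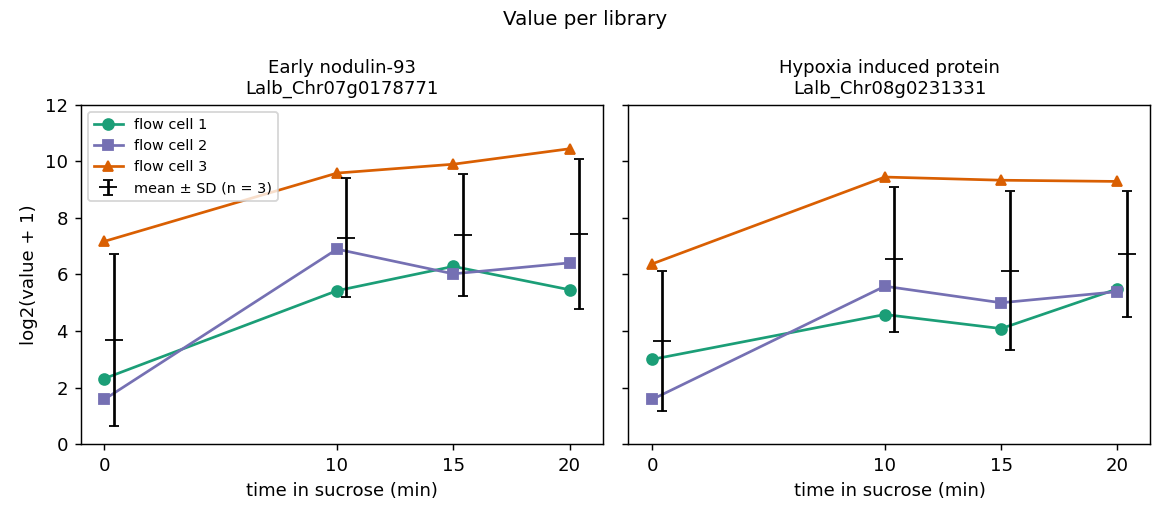
Values of the 2 members in each of the 12 libraries, as log2(value + 1) against the time in sucrose in min, with a line for each flow cell and black bars for the mean ± SD of the 3 libraries of a time point. In every flow cell all 3 sucrose libraries lie above the control library, and flow cell 3 lies above the other 2 throughout, so that the SD of a time point (2.11 to 3.03 for Early nodulin-93) is mostly the distance between flow cells.

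For both members, each of the 9 sucrose libraries was above the control of its own flow cell. This was the case for 141 of the 19138 genes (0.737%), and the opposite, all 9 below, for 18 (0.0941%). Because the members were chosen for this pattern, the count gives only its frequency among all genes. The smallest of the 9 differences was 2.41 on the log2 scale for Early nodulin-93, and no other gene had a smallest difference of that size. For the hypoxia induced protein gene it was 1.09, and 8 genes, this one included, reached it. Both features together, all sucrose libraries above their own control and flow cell 3 above the rest, were found in 11 genes (0.0575%). The median difference of the 19138 genes was 0 in flow cells 1 and 3 at each time point and 0.32, 0.36 and 0.58 in flow cell 2 after 10, 15 and 20 min.

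The distance between flow cell 3 and the others was comparable in size with the difference from control. For Early nodulin-93, flow cell 3 exceeded the mean of flow cells 1 and 2 by 5.22 on the log2 scale in the control, a 37.2-fold difference. After 10, 15 and 20 min it did so by 3.42, 3.74 and 4.51. For the hypoxia induced protein gene, the excess of flow cell 3 was 4.08 in the control (16.9-fold) and 4.36, 4.79 and 3.85 after 10, 15 and 20 min. The excess of Early nodulin-93 was greatest in the control, and that of the hypoxia induced protein gene after 15 min. Of the variation of Early nodulin-93 in log2(value + 1), 37.7% lay between time points, 58.8% between flow cells and 3.54% in neither. For the hypoxia induced protein gene these shares were 26.5%, 70.3% and 3.22%. The medians over all 19138 genes were 17.4%, 24.7% and 46.8%, so that little of either member's variation was left after time and flow cell. Because the members were listed with their values known, this comparison only describes them. The share between flow cells is also the share between biological replications.

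Once above the control, the levels of the members differed little between sucrose time points. By mean log2(value + 1), the order for Early nodulin-93 was 20 min (7.44 ± 2.65), 15 min (7.40 ± 2.16), 10 min (7.30 ± 2.11) and control (3.69 ± 3.03, SD, n = 3). Within flow cells, 20 min minus 15 min was 0.04 ± 0.75 and 15 min minus 10 min was 0.10 ± 0.89, each positive in 2 of 3 flow cells. These neighbours did not differ beyond their spread. Flow cell 3 alone had a higher value at each later time point, ending at 1391, whereas flow cell 1 was highest after 15 min and flow cell 2 after 10 min.

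For the hypoxia induced protein gene, the order was 20 min (6.72 ± 2.22), 10 min (6.54 ± 2.57), 15 min (6.14 ± 2.80) and control (3.65 ± 2.46, SD, n = 3). The 20 min libraries exceeded the 10 min libraries by 0.19 ± 0.62 on the log2 scale and were higher in 1 of 3 flow cells. Without scaling, the 15 min libraries were lower than the 10 min libraries in all 3 flow cells, by -0.40 ± 0.25 as 15 min minus 10 min. The 20 min libraries differed from the 15 min libraries by 0.58 ± 0.74 and were higher in 2 of 3. With median-of-ratios scaling, flow cell 1 was instead higher after 15 min (22.3) than after 10 min (19.6). Flow cell 3 was then higher after 20 min (624) than after 15 min (588). In flow cell 3 the value was highest after 10 min and in flow cell 1 after 20 min.

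Per kb of annotated span, the level of Early nodulin-93 relative to that of the hypoxia induced protein gene changed between libraries. In the control the ratio of the levels was 0.559, 0.979 and 1.71. After 10 min it was 1.79, 2.46 and 1.08, and after 15 min it was 4.71, 2.02 and 1.45. After 20 min the ratio was 0.956, 2.01 and 2.18. In flow cells 1 and 2 the ratio was higher at all sucrose time points than in the control. The control ratios there come from values of 4 against 7 and 2 against 2, so they rest on few units. In flow cell 3 it was below the control after 10 and 15 min and above it after 20 min.

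The members followed each other over the 12 libraries, with a Pearson correlation of 0.961 and a Spearman correlation of 0.902 in log2(value + 1). The 12 points share 3 flow cells, and flow cell 3 holds the 3 highest libraries of both genes. After the values were centred within each flow cell, the Pearson correlation was 0.912 and the Spearman correlation 0.573. The control libraries were the lowest of each flow cell for both genes, and the order of the sucrose libraries was shared less. Both genes were listed with their values known, so these correlations only describe them.

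**Figure D2:**
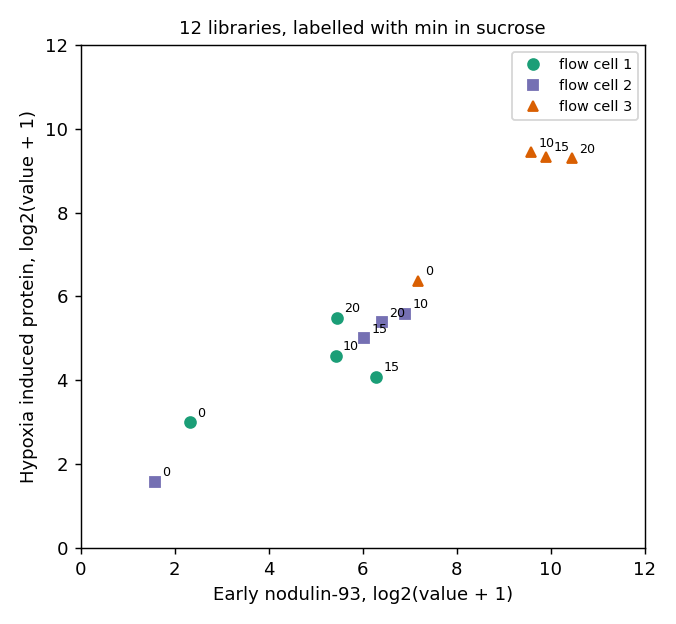
Hypoxia induced protein against Early nodulin-93 in the 12 libraries, both as log2(value + 1), with symbols by flow cell and the min in sucrose beside each point. The control of flow cell 3 (143 and 82) lies near the sucrose libraries of flow cells 1 and 2, and each flow cell's control lies below and to the left of its 3 sucrose libraries.

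Likeness to other genes was measured as the Pearson correlation in log2(value + 1) over the 12 libraries, among 4072 other genes with a mean value of at least 10. The gene most like both members was Lalb_Chr17g0337121, of the bifunctional inhibitor/lipid transfer protein/seed storage helical family, whose lipid transfer proteins carry lipids in the cell wall (r = 0.971 with Early nodulin-93 and 0.979 with the hypoxia induced protein gene). Its values were 8, 8 and 49 after 20 min and 1, 1 and 9 in control roots, which repeats both the rise within flow cells and the height of flow cell 3 at a much lower value. For Early nodulin-93, the next were a cupredoxin, a small copper-binding protein (Lalb_Chr10g0106111, 0.964), the hypoxia induced protein gene itself (0.961), a small auxin-up RNA, named for its induction by auxin (Lalb_Chr08g0243451, 0.951), and a beta-amyrin 24-hydroxylase, which oxidizes a triterpene (Lalb_Chr03g0041641, 0.926). For the hypoxia induced protein gene, Early nodulin-93 came next. It was followed by an uncharacterized protein (Lalb_Chr05g0224011, 0.946), a protein with a heavy metal-associated domain (Lalb_Chr07g0176941, 0.940) and a further lipid transfer family gene (Lalb_Chr03g0041101, 0.936).

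After centring within flow cells, other genes came forward. A bHLH transcription factor, Lalb_Chr02g0158971, had correlations of 0.946 with Early nodulin-93 and 0.929 with the hypoxia induced protein gene. The values of this gene were 3, 0 and 2 in control roots, 16, 36 and 10 after 10 min, 13, 13 and 15 after 15 min and 13, 39 and 12 after 20 min, without the height of flow cell 3. The lipid transfer family gene Lalb_Chr12g0198241 (0.943), Lalb_Chr17g0337121 (0.935), Soyasaponin III rhamnosyltransferase, which adds a sugar to a saponin (Lalb_Chr20g0123141, 0.918), and the small auxin-up RNA (0.916) were also among the 5 most like Early nodulin-93. For the hypoxia induced protein gene, the 5 were Lalb_Chr17g0337121 (0.969), the bHLH factor, a major intrinsic protein of the aquaporin family of water channels (Lalb_Chr24g0396031, 0.915), Early nodulin-93 (0.912) and Lalb_Chr05g0224011 (0.901). The aquaporin family gene had 325, 381 and 69 after 10 min and 211, 148 and 32 in control roots, and was thus lower in flow cell 3 than in the other flow cells. Genes of like time course therefore differed in their order of flow cells.

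The table names 9 other genes as ENOD93 or hypoxia induced protein, and 8 of them had values high enough to be tested. None of the 9 had all sucrose libraries above their own controls. With limma on log2(value + 1), 0 of 8 met the thresholds of the study, an absolute log2 FC of 1.5 or more together with an unadjusted p of at most 0.05, after 10, 15 or 20 min, and 0 of 8 had an unadjusted p of at most 0.05. Among all 19138 genes, 0.575% were called higher after 10 min, 0.449% after 15 min and 0.695% after 20 min, and 0.0732%, 0.115% and 0.131% were called lower. An adjusted p of at most 0.05 was reached by 0.00523% of them (1 gene) at each time point and by 0 of the 8. Without flow cell 3, 3, 1 and 3 of the 8 had an unadjusted p of at most 0.05 after 10, 15 and 20 min. Their log2 FCs were 0.71 to 0.93, and still 0 of 8 met the thresholds or an adjusted p of at most 0.05. Of all 19138 genes, 2409, 1119 and 2684 then had an unadjusted p of at most 0.05 in limma. With all libraries these numbers were 455, 375 and 720. Without flow cell 3, 106, 73 and 146 of all genes had an adjusted p of at most 0.05. Of these, 87, 64 and 132 had identical values within every group of 2 libraries, so that limma saw no spread in them. The median log2 FC of the 8 genes was 0.61, 0.17 and 0.16, beside 0.19, 0.06 and 0.26 over all genes. With median-of-ratios scaling of the libraries it was 0.34, 0.12 and -0.12 for the 8 genes, a change of sign after 20 min that was also seen without flow cell 2 (-0.34), and 0.01, 0.01 and 0.04 for all genes. How similar the sequences of these genes are was not assessed here, so reads shared between near-identical copies cannot be told apart.

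Among the other genes named ENOD93, Lalb_Chr13g0302011 on chromosome 13 (14599622 to 14600761) had the highest values, nearly all in flow cell 3. In flow cells 1, 2 and 3 it was listed at 0, 0 and 58 in the control, 0, 1 and 1674 after 10 min, 0, 1 and 829 after 15 min, and 1, 0 and 1602 after 20 min. Within flow cell 3 its sucrose libraries were thus far above the control, whereas flow cells 1 and 2 held no value above 1. Of its variation, 92.3% lay between flow cells, which are also the biological replications. Its log2 FC was 1.94 after 10 min (SE 3.53) and 1.92 after 20 min, and in limma the unadjusted p was 0.592 and 0.596. When the flow cell was added to the limma model, it passed the thresholds after 10 min (unadjusted p = 0.0433, adjusted p = 0.914) and after 20 min (unadjusted p = 0.0452, adjusted p = 0.756). That term raised the share of all genes called higher to 0.69%, 0.559% and 0.867% after 10, 15 and 20 min. Without flow cell 3, the log2 FC was 0.50 at both time points, and without the 10 min or the 20 min library of flow cell 3 it was -1.46. In the latter case the control mean still held the 58 of flow cell 3, so the flow cells did not match.

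The neighbouring ENOD93 gene on chromosome 13, Lalb_Chr13g0302001, was at 0 in 10 of 12 libraries, with a 2 and a 3 in the others, and was not tested. Lalb_Chr12g0197801, also named ENOD93, was listed at 0 in all libraries of flow cells 1 and 2. In flow cell 3 it had 6 in the control and 38, 26 and 91 after 10, 15 and 20 min. The height of flow cell 3 was thus shared by 3 of the 9 genes, these being Lalb_Chr13g0302011, Lalb_Chr12g0197801 and the hypoxia induced protein gene Lalb_Chr02g0148071. The last of these had 10, 7 and 63 in control roots, then 15, 19 and 64 after 10 min, 18, 13 and 73 after 15 min, and lastly 13, 18 and 30 after 20 min. Of the 9 other family genes it was nearest to the pattern of the members, with 8 of 9 sucrose libraries above their own control, although its differences were smaller. Without flow cell 3 its log2 FC was 0.93, 0.80 and 0.80, with unadjusted p of 0.0215, 0.0367 and 0.0367 in limma (adjusted p = 0.318, 0.776 and 0.322). The remaining gene named ENOD93, Lalb_Chr24g0402691, had values of 6 to 26 and no such order.

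In the remaining hypoxia induced protein genes, at most 5 of 9 sucrose libraries were above their own control. Lalb_Chr12g0201501, the highest in flow cells 1 and 2, had 23, 18 and 56 in the control, 41, 36 and 39 after 10 min, 19, 27 and 46 after 15 min and 31, 37 and 21 after 20 min. In flow cell 3 all of its sucrose libraries were below the control, and in flow cell 2 all were above without scaling. With median-of-ratios scaling, flow cell 2 was slightly lower after 15 min (25.6) than in the control (26.3). Lalb_Chr21g0310561 had values of 4 to 19 and Lalb_Chr06g0167731 values of 2 to 11. Lalb_Chr04g0250311 was listed at 0 in flow cells 1 and 2 and reached at most 3 in flow cell 3.

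**Figure D3:**
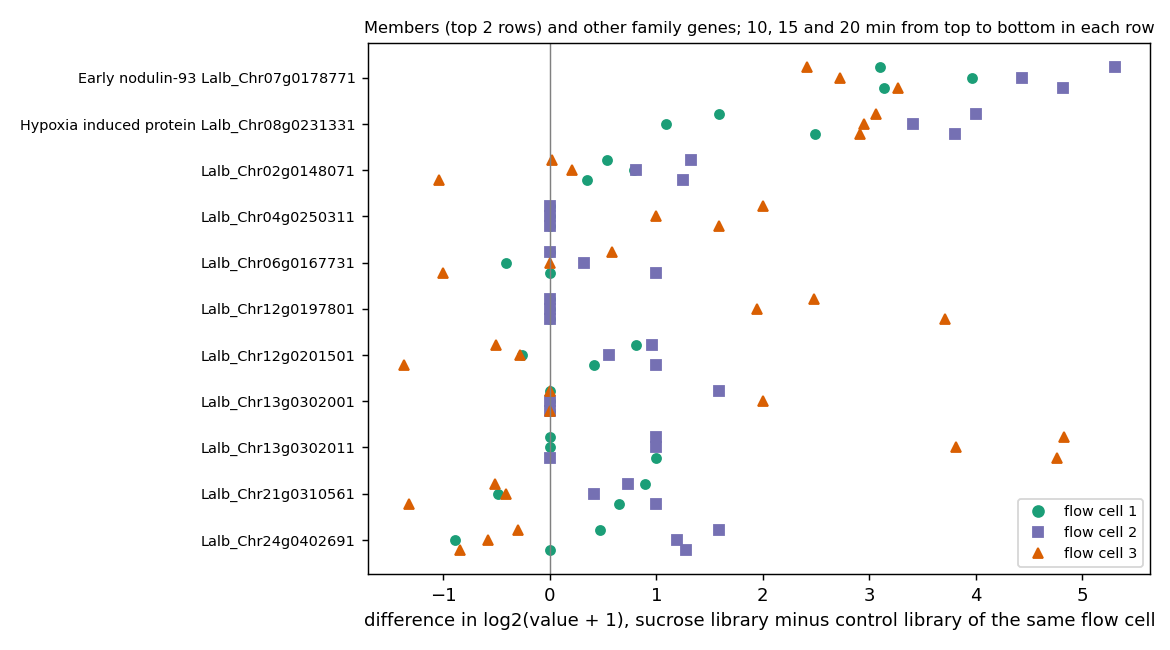
Difference in log2(value + 1) between each sucrose library and the control library of its flow cell, for the 2 members in the top rows and the 9 other genes of the family below them, with symbols by flow cell and 10, 15 and 20 min from top to bottom within a row. All 9 points of both members lie right of 0 (at least 2.41 and 1.09), whereas the differences of Lalb_Chr13g0302011 and Lalb_Chr12g0197801 are large in flow cell 3 only.

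Genes that low oxygen is known to raise in plant roots were examined as a list of 25, of which 23 were tested. With limma, 0 of 23 passed the thresholds at any time point, 0 of 23 had an unadjusted p of at most 0.05, and with the flow cell as a term both counts were again 0. Of all 19138 genes, only 0.575%, 0.449% and 0.695% were called higher after 10, 15 and 20 min, and 0.0732%, 0.115% and 0.131% lower. A count of 0 in 23 therefore does not set the list apart from other genes. The list was picked by words and holds some dehydrogenases of other alcohols. Its median log2 FC was 0.32, 0.13 and 0.35 after 10, 15 and 20 min, beside 0.19, 0.06 and 0.26 over all genes. With median-of-ratios scaling the medians of the list were 0.04, 0.05 and 0.25. Alcohol dehydrogenase 1 (Lalb_Chr23g0271341), which makes ethanol in fermentation, had 122, 65 and 97 in the control, 125, 66 and 319 after 10 min, 48, 69 and 362 after 15 min and 128, 72 and 1076 after 20 min. Its sucrose libraries were thus well above the control in flow cell 3, and in flow cells 1 and 2, where both members were higher, they were close to the control or below it. Non-symbiotic hemoglobin 1 (Lalb_Chr01g0002841), which scavenges nitric oxide, had 48, 105 and 389 after 20 min and 42, 71 and 195 in the control. Sucrose synthase Lalb_Chr12g0200341, which cleaves sucrose, had 52, 69 and 51 after 20 min and 60, 88 and 16 in the control.

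Cytochrome *c* oxidase subunits and assembly factors numbered 32, all tested. After 10 and 15 min, 0 of 32 passed the thresholds and 0 had an unadjusted p of at most 0.05 with limma. Of all 19138 genes, 0.575%, 0.449% and 0.695% were called higher after 10, 15 and 20 min, and 0.0732%, 0.115% and 0.131% lower. After 20 min, a mitochondrial subunit 2 gene (Lalb_Chr00c24g0407111) was lower, with 2, 0 and 2 after 20 min against 7, 30 and 6 in the control (log2 FC -2.53, SE 1.13, unadjusted p = 0.0452, adjusted p = 0.979). This call was lost without any single flow cell, with log2 FCs of -3.09, -1.32 and -3.18 without flow cells 1, 2 and 3, on leaving out several single libraries, and with 0.5 or 5 in place of 1 added before the log2. With the flow cell as a term, Lalb_Chr23g0276811, also named for a cytochrome *c* oxidase polypeptide, was called higher after 10 min (log2 FC 4.04, unadjusted p = 0.0183, adjusted p = 0.914), with 0, 64 and 68 after 10 min against 0 in each control. The nuclear subunit 5c gene Lalb_Chr02g0146831, the highest of the list, had 118, 155 and 89 after 20 min and 86, 76 and 153 in the control. The next highest, Lalb_Chr07g0180031, had 69, 86 and 21 after 20 min, against 66, 44 and 70 in control roots, and Lalb_Chr13g0300581 had 43, 47 and 33, against 34, 38 and 63. Without scaling, all 3 were below their control in flow cell 3 after 20 min and above it in flow cells 1 and 2. The median-of-ratios factors were 0.87 and 0.69 for the controls of flow cells 1 and 2. For their 20 min libraries they were 1.07 and 1.25. After division by these factors, Lalb_Chr07g0180031 in flow cell 1 and Lalb_Chr13g0300581 in flow cell 2 lie below their control.

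Of 11 genes named for other nodulins, 6 were tested and 1, the late nodulin Lalb_Chr04g0261541, was called. It was listed at 0 in all libraries of 10 and 20 min, against 8, 0 and 33 in the control (log2 FC -2.75, SE 1.03, unadjusted p = 0.0211 at both time points, adjusted p = 1.0 and 0.979). The call was lost without control replicate 1 (-2.54) or control replicate 3 (-1.58), and without flow cell 1 or 3. Of all 19138 genes, 0.0732% and 0.131% were called lower after 10 and 20 min. The late nodulin Lalb_Chr06g0162321 had 11, 13 and 81 after 20 min, against 5, 3 and 58 in control roots, and was not called, nor was Lalb_Chr06g0161191, with 14, 0 and 6 against 18, 3 and 11.

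Among 153 transcription factors of the AP2-EREBP family, which includes the ERF factors of the low-oxygen response in *Arabidopsis*, 117 were tested. After 10 min 0 were called, with 3 at an unadjusted p of at most 0.05. After 15 min 1 was higher (Lalb_Chr04g0262881) and 1 lower (Lalb_Chr15g0086951), and after 20 min 3 were higher (Lalb_Chr04g0262881, Lalb_Chr12g0197461 and Lalb_Chr07g0181311). Lalb_Chr07g0181311 was at 0 in all controls, at 0 or 1 after 10 min and at 7, 5 and 16 after 20 min (log2 FC 3.22, unadjusted p = 3.84e-05, adjusted p = 0.367), a later time course than that of the members. Lalb_Chr04g0262881 lost its call without control replicate 1, with 1.31 after 15 min and 1.12 after 20 min, without the 15 min library of flow cell 3 (1.35), and after 20 min also without control replicate 2 (1.62) or any of the 20 min libraries (1.48 to 1.77). Without flow cell 1 or 2 it was called at neither time point. Lalb_Chr12g0197461 lost its call without flow cell 2 (1.75). Lalb_Chr15g0086951 lost its call without control replicate 3 or without flow cell 3 (-1.29 in both). The highest genes of the list were not called. Lalb_Chr02g0152371 had 77, 97 and 19 after 20 min, against 156, 64 and 6 in control roots, Lalb_Chr02g0152341 had 15, 152 and 0, against 58, 82 and 5, and Lalb_Chr12g0201171 had 60, 41 and 84, against 45, 54 and 48. Over all 5 lists, 186 genes were tested, and 0, 1 and 3 were called higher and 1, 1 and 2 lower after 10, 15 and 20 min. Of all 19138 genes, 0.575%, 0.449% and 0.695% were called higher and 0.0732%, 0.115% and 0.131% lower. Among the 186 genes, 0 had an adjusted p of at most 0.05. When flow cell 3 was left out, 1 gene of these lists had one, the AP2-EREBP gene Lalb_Chr09g0320711 after 10 min (adjusted p = 0.0012 in limma), with values of 1 and 1 against 0 and 0 in the controls of flow cells 1 and 2. Its log2 FC of 1.00 was below the threshold.

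Markers of other tissues were set beside these results. The root marker words (Casparian strip membrane protein) matched 0 gene names, so the labelled tissue was not checked in that way. Of the nodule words, 1 gene matched, a leghemoglobin reductase with values of 17 to 61, and no leghemoglobin was among the matches. The 30 genes for chlorophyll a-b binding proteins and the Rubisco small subunit, which mark green tissue, were each above 0 in at least 1 library. Their summed values in flow cell 3 were 242 in the control and 435, 394 and 767 after 10, 15 and 20 min. Like both members, this sum was higher in flow cell 3 than in the others, and higher there in sucrose than in the control. Taken singly, 5 of the 30 genes had all 4 libraries of flow cell 3 above the other 8, beside 7.86% of all tested genes. All 9 sucrose libraries were above their own control in 0 of the 30. The order of the sucrose libraries of flow cell 3 differed between the sum and the members. The members had 766, 952 and 1391 (Early nodulin-93) and 695, 643 and 624 (hypoxia induced protein gene). The part of green tissue in the results of flow cell 3 was not tested. In flow cell 1 the sums were 139 in the control and 113, 68 and 110 in sucrose, and in flow cell 2 they were 116 in the control and 107, 113 and 123 in sucrose. The members were higher than their controls in all 6 sucrose libraries of these flow cells. A part of green tissue in their difference from control was not tested there either.

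**Figure D4:**
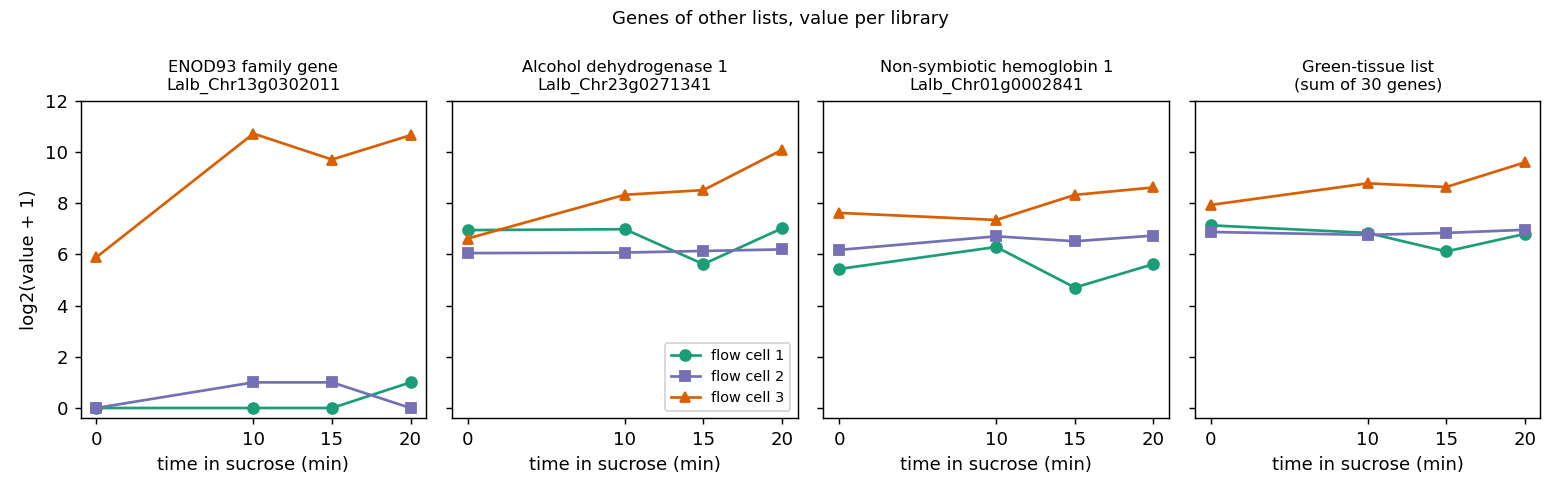
Lalb_Chr13g0302011, alcohol dehydrogenase 1, non-symbiotic hemoglobin 1 and the sum of the 30 green-tissue genes in each of the 12 libraries, as log2(value + 1) against the time in sucrose in min, with a line for each flow cell. In flow cell 3 every panel except that of the hemoglobin is higher at all sucrose time points than in the control, whereas in flow cells 1 and 2 alcohol dehydrogenase 1 and the green-tissue sum lie near or below their control values, unlike the 2 members.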

How the data were processed

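Oxford Nanopore cDNA libraries of white lupin roots (12, with 3 for each of 0, 10, 15 and 20 min in 10 mM sucrose) were processed by the authors with the Epi2me transcriptome workflow, in which Pychopper trimmed the reads, Minimap2 mapped them to CNRS_Lalb_1.0, StringTie assembled transcripts and Salmon counted them. The values the authors deposited carry the name CPM, but all are whole (100%) and sum to 184071 to 407780 per library. They are handled here as a score, deposited by the authors in whole numbers, whose scale is not given in the sources used here. No counts of reads or intervals of counting error were derived. Protein names are those in the authors' table. All 23427 identifiers matched locus tags of the annotation. The authors' table of their own DESeq2 comparisons (mean, log2 fold change, standard error, statistic and p-values per time point) was not used.

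Values were analysed as log2(value + 1). A gene was tested if it reached 1 in 3 or more libraries (19138 genes). The model was a linear fit of all 4 groups by limma 3.58.1 (R 4.3.3), its variance trend switched on, without scaling. Calls required an absolute log2 FC of 1.5 or more and a two-sided unadjusted p of at most 0.05, the thresholds of the study, and separately a Benjamini-Hochberg adjusted p of at most 0.05. The script was tested on simulated data. Tables were made with Python 3.11.15, numpy 2.4.6 and pandas 2.3.3, and figures with matplotlib 3.10.9. Replicates may share growth conditions, so p-values measure the spread between these libraries.

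The replicate number names the flow cell, according to the paper's methods, and therefore pairs libraries across time points. Deviations from the time point means had median correlations of 0.284, 0.259 and 0.532 between libraries of flow cells 1, 2 and 3, and of -0.335 between flow cells. The 3 deviations of a time point sum to 0, so positive values within flow cells go with negative ones between them. The negative median is thus not separate information. The correlations ranged from 0.015 to 0.339, from -0.031 to 0.389 and from 0.269 to 0.686 within flow cells, and from -0.524 to 0.562 between them. The flow cell entered as a block in an alternative fit. Other alternatives were the value added before the log2 (0.5 or 5), no filter, median-of-ratios scaling, scaling to the median total, and leaving out each library and each flow cell.

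The members and the lists were chosen with earlier results of these data known. Lists were picked by words in protein names. Named genes were the members, their annotated neighbours, for each member the 5 most correlated genes before and after centring within flow cells, all genes of the ENOD93 and hypoxia induced protein family, and from the other lists the 3 with the highest mean and every called gene. A planned motif search in promoters was not run, since no sequence was used here.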

Additional observations from a re-analysis of the deposited data

How the results depend on the processing

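The differences of both members from the control kept their direction under every alternative run. With 0.5 or 5 added before the log2 or with either scaling, they moved by less than their SD over flow cells. The flow cell block cannot move them, since each flow cell holds a library of every time point. On leaving out libraries or flow cells, the Early nodulin-93 differences ranged from 2.47 to 5.35 at 10 min, from 2.46 to 5.45 at 15 min and from 2.24 to 5.48 at 20 min. Those of the hypoxia induced protein gene ranged from 1.43 to 4.25, from 0.89 to 3.85 and from 1.79 to 4.43. The lowest values came without a sucrose library of flow cell 3 and the highest without the control of flow cell 3. When a single library was left out, group means were compared and the flow cells no longer matched. These extremes therefore also hold the distance between flow cells. The correlation of the members was 0.911 to 0.986 without a flow cell.

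The counts of called genes depended on the settings. Adding 0.5 before the log2 gave 266, 221 and 399 genes higher and 42, 63 and 45 lower at 10, 15 and 20 min, and adding 5 gave 25, 14 and 7 higher and 2, 4 and 8 lower. Median-of-ratios scaling gave 83 higher and 22 lower at 10 min and 76 higher and 40 lower at 20 min, against 110 and 14 and 133 and 25 without scaling. Scaling to the median total gave 84 higher and 28 lower, 120 and 35, and 94 and 41. The replicate block gave 29 lower genes at 10 min and 38 at 20 min. On leaving out libraries or flow cells, 72 to 292, 75 to 208 and 105 to 365 genes were higher and 12 to 41, 21 to 94 and 19 to 49 lower. Without flow cell 3, 292, 167 and 365 were higher, and 106, 73 and 146 had an adjusted p of at most 0.05, against 1 at each time point with all libraries.

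For the 5 lists together, adding 0.5 gave 1 gene higher and 3 lower at 10 min and 4 higher and 2 lower at 15 min. Adding 5 gave 0 in each direction at all time points. Median-of-ratios scaling gave 2 lower at 10 min and 2 higher at 15 min, scaling to the median total gave 2 lower and 3 higher, and the replicate block gave 2 higher at 10 min. On leaving out libraries or flow cells, 0 to 2, 0 to 3 and 1 to 5 were higher and 1 to 3, 1 to 3 and 0 to 3 lower. Lalb_Chr13g0302011 reversed to -1.46 without the 10 min or the 20 min library of flow cell 3. The control mean then still held the 58 of flow cell 3, so the flow cells did not match. Within flow cells, no sucrose library of this gene was below its control (smallest difference 0). The highest values of Lalb_Chr13g0302011, 3.90 and 3.88, came without the control of flow cell 3. Beyond what is given beside each result, the block changed no other call in these lists. The cause of the other shifts was not tested. The unknown number of reads per value limits what low values can show.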
